A study of Homo sapiens with 27 samples.

Results

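The direct comparison of A333fs with Splice del, both truncating mutants of the transcription factor GATA3, was made in RNA-seq libraries of T47D cells. T47D is an established line of luminal, estrogen receptor-positive breast cancer. The libraries titled A333fs (n = 3) were set against those titled Splice (n = 3), which made 6 of the 12 RNA-seq libraries and 6 of the 27 samples of the series. The other 6 RNA-seq libraries came from cells with the empty vector (control, n = 3) and cells with the C321fs mutant (n = 3), and entered only the estimate of the spread and the levels given for reference. The question was which genes and functions part the 2 mutants from each other, rather than from control.

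In A333fs cells, a frameshift within the C-terminal zinc finger (ZnFn2) leaves part of the wild-type ZnFn2 sequence. In Splice del cells, a deletion at the X308 splice site shifts the frame and removes all of it. Each mutant was fused to a 3xTy1 tag and delivered with a pHAGE lentiviral vector, and the cells were kept as a stable pool selected with puromycin. Each mutant is represented by 1 such pool. Effects of the mutant sequence, of the pool and of the amount of mutant protein cannot be told apart. All pools, control included, still expressed wild-type GATA3. No label ties a replicate to a separate transduction, so p-values measure the spread between libraries of 1 pool. The sample labels and the methods of the study name different growth media, and the medium of these libraries is not settled.

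GATA3 binds GATA sequences through its zinc fingers, and ZnFn2 makes the main contact with DNA. In the mammary gland it is needed for the luminal cell fate, where it works with FOXA1 and the estrogen receptor and holds back genes of basal and mesenchymal cells. Frameshift mutations of its last exons are common in luminal breast cancer. Those within or before ZnFn2 leave a protein with an altered or missing ZnFn2.

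The libraries held 27872208 to 36788024 fragments counted on genes. Fragments of the introduced mutant count to GATA3 (chromosome 10, 8054704 to 8075201 of hg38) like those of the wild-type gene. GATA3 stood at 1016, 1006 and 1028 CPM (the gene's fragments in ppm of the library, scaled by TMM) in A333fs and at 962, 992 and 1050 CPM in Splice del libraries, and the ranges overlapped (log2 difference 0.02, SE 0.05, adjusted p = 0.802, edgeR). All 15 luminal epithelial markers were expressed in both lines and none was called different. Of these, 9 had a difference below 0, and the median was -0.05. With an adjusted p under 0.01, 2 were higher and 3 lower, and the library averages of the list overlapped. Their summed level was 16900 to 17910 CPM in A333fs and 15360 to 16400 CPM in Splice del libraries, without overlap. KRT8 alone had means of 5337 and 3697 CPM in this sum. With each library's trend over GC content and exon length removed, KRT8 was called higher, the only luminal marker called in that fit. Of 15 basal and myoepithelial markers, 10 were expressed enough to test, of which 2 were called higher and 1 lower, with a median of 0.32. Their summed level was 115.0 to 127.7 CPM in A333fs and 111.8 to 122.6 CPM in Splice del libraries. Of the markers of cell types outside the epithelium, 7 of 15 fibroblast, 5 of 15 leukocyte and 3 of 12 endothelial genes were expressed enough to test. Their summed levels were 72.7 to 80.7, 8.40 to 9.52 and 5.37 to 5.65 CPM in A333fs and 75.05 to 81.6, 9.10 to 11.1 and 6.71 to 7.80 CPM in Splice del libraries. Of the 5 leukocyte genes, 1 was called higher and 1 lower. ITGAM, an integrin subunit of myeloid cells, was higher, with 49, 44 and 44 fragments in A333fs and 21, 26 and 19 in Splice del libraries (log2 difference 1.12, edgeR adjusted p = 0.00241, called in 9 of the 12 fits that leave out 1 library). CD14 was lower, with 46, 40 and 39 fragments against 103, 72 and 78 (log2 difference -0.94, edgeR adjusted p = 0.000639, called in all 12 such fits). The fibroblast markers DCN, LUM and TWIST1 are taken up below. PTPRC, which marks leukocytes, and the fibroblast markers COL1A2, PDGFRB, FAP, POSTN and PRRX1 had no fragment in any of the 6 libraries. PECAM1, which marks endothelium, had at most 2 fragments.

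A gene was called where it differed more than 1.5-fold with an adjusted p under 0.01. By this rule A333fs cells had 152 genes above Splice del cells (1.03% of 14789 tested) and 292 genes below them (1.97%), 3.0% together. Ignoring the size of the change, 1762 genes (11.9%) passed the adjusted p, 684 of them higher (4.63%) and 1078 lower (7.29%). The higher genes reached the larger differences: 80 of the 152 differed more than 2-fold, against 63 of the 292 lower genes. The 6 libraries did not overlap for any of the 444 called genes, nor for 46.3% of all genes tested, with A333fs above for 21.9% and below for 24.5%. Without replicate 3 of A333fs, 127 genes were higher and 194 lower. With each library's trend over GC content and exon length removed, 186 were higher and 203 lower, of which 145 and 180 were also called without that step.

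**Figure D1:**
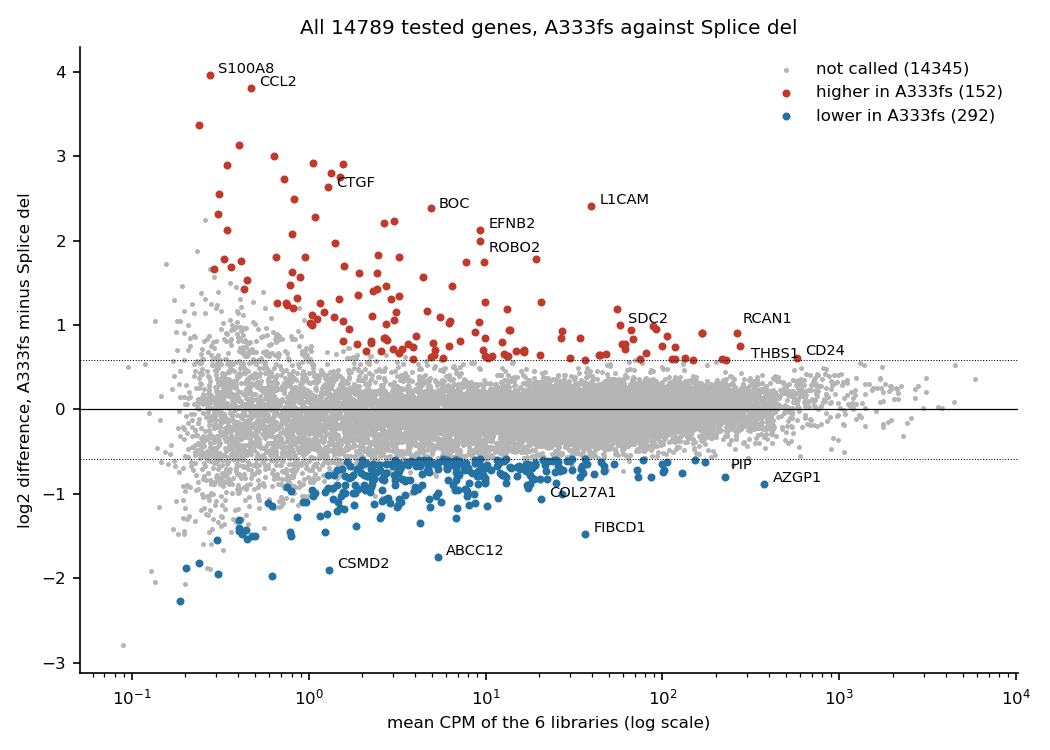
Log2 difference between A333fs and Splice del (vertical) against the mean CPM of the 6 libraries (horizontal, log scale) for the 14789 genes tested, with dotted lines at a fold change of 1.5. The 152 genes higher in A333fs (red) extend farther from 0 than the 292 lower genes (blue), which lie in a dense band close to the limit.

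Adhesion molecules and guidance factors held the largest differences among well expressed genes: L1CAM, EFNB2 and ROBO2 led all called genes with a mean of at least 5 CPM in the 6 libraries. L1CAM, a neural cell adhesion molecule of the immunoglobulin family (X chromosome, 153861514 to 153886174), stood at 62.5, 66.3 and 71.2 CPM in A333fs and at 12.3, 12.2 and 13.2 CPM in Splice del libraries. Every A333fs library was thus above every Splice del library, by 5.33-fold on average (log2 difference 2.41, SE 0.10, adjusted p = 1.44e-09, edgeR). Control cells lay between the mutants at 31.4 CPM ± 3.61 (SD, n = 3). BOC, a co-receptor for Hedgehog ligands, stood at 8.00, 8.84 and 7.90 CPM in A333fs and 1.73, 1.45 and 1.498 CPM in Splice del libraries (log2 difference 2.39, SE 0.13, adjusted p = 9.42e-09), and its level in C321fs cells, 6.06 CPM, was nearer to A333fs. An exon of BOC overlaps one of CFAP44, and the counting left such fragments out. EFNB2, the membrane-bound ligand ephrin-B2, stood at 16.01, 14.4 and 15.0 CPM in A333fs and 3.28, 3.75 and 3.34 CPM in Splice del libraries, where C321fs cells had 4.74 CPM. Its difference was 2.13 on the log2 scale (SE 0.15, adjusted p = 1.76e-07).

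Some receptors of these systems were also higher. ROBO2, a receptor for the repellent SLIT proteins, stood at 14.2, 14.7 and 15.7 CPM in A333fs and 3.23, 4.43 and 3.55 CPM in Splice del libraries (log2 difference 2.00, SE 0.11, adjusted p = 9.42e-09). Its Splice del level was that of control (3.75 CPM) and C321fs cells (3.97 CPM). Its relative ROBO1 was higher by 0.78 (SE 0.08, adjusted p = 6.5e-06), from 42.2 to 44.9 CPM in Splice del to 69.7 to 79.2 CPM in A333fs libraries. EPHA4, a receptor for ephrins, showed another order of the lines: 2.36, 1.95 and 2.47 CPM in A333fs and 0.568, 0.591 and 0.557 CPM in Splice del libraries (log2 difference 1.97, SE 0.19, adjusted p = 4.87e-06). Control cells had 3.15 CPM and C321fs cells 1.255 CPM, so that Splice del was the farthest below control and A333fs the nearest to it. Of the 58 guidance genes tested, these 4 were called higher and 2 lower (EFNA2 and SEMA6B, called in 6 and 9 of the 12 fits that leave out 1 library), beside a median difference of -0.20 for the list and -0.02 for all genes tested. Passing the adjusted p at any fold, 7 were higher and 15 lower, most of the latter semaphorins, plexins and ephrins. With the trend removed the median of the list was -0.06, and SEMA6B was no longer called. CDH10, a cadherin of neural tissue, stood at 1.39, 2.04 and 2.20 CPM in A333fs libraries (43, 64 and 75 fragments) and 0.284, 0.295 and 0.139 CPM in Splice del libraries (11, 10 and 4 fragments), a log2 difference of 2.92 (SE 0.28, adjusted p = 3.64e-06).

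**Figure D2:**
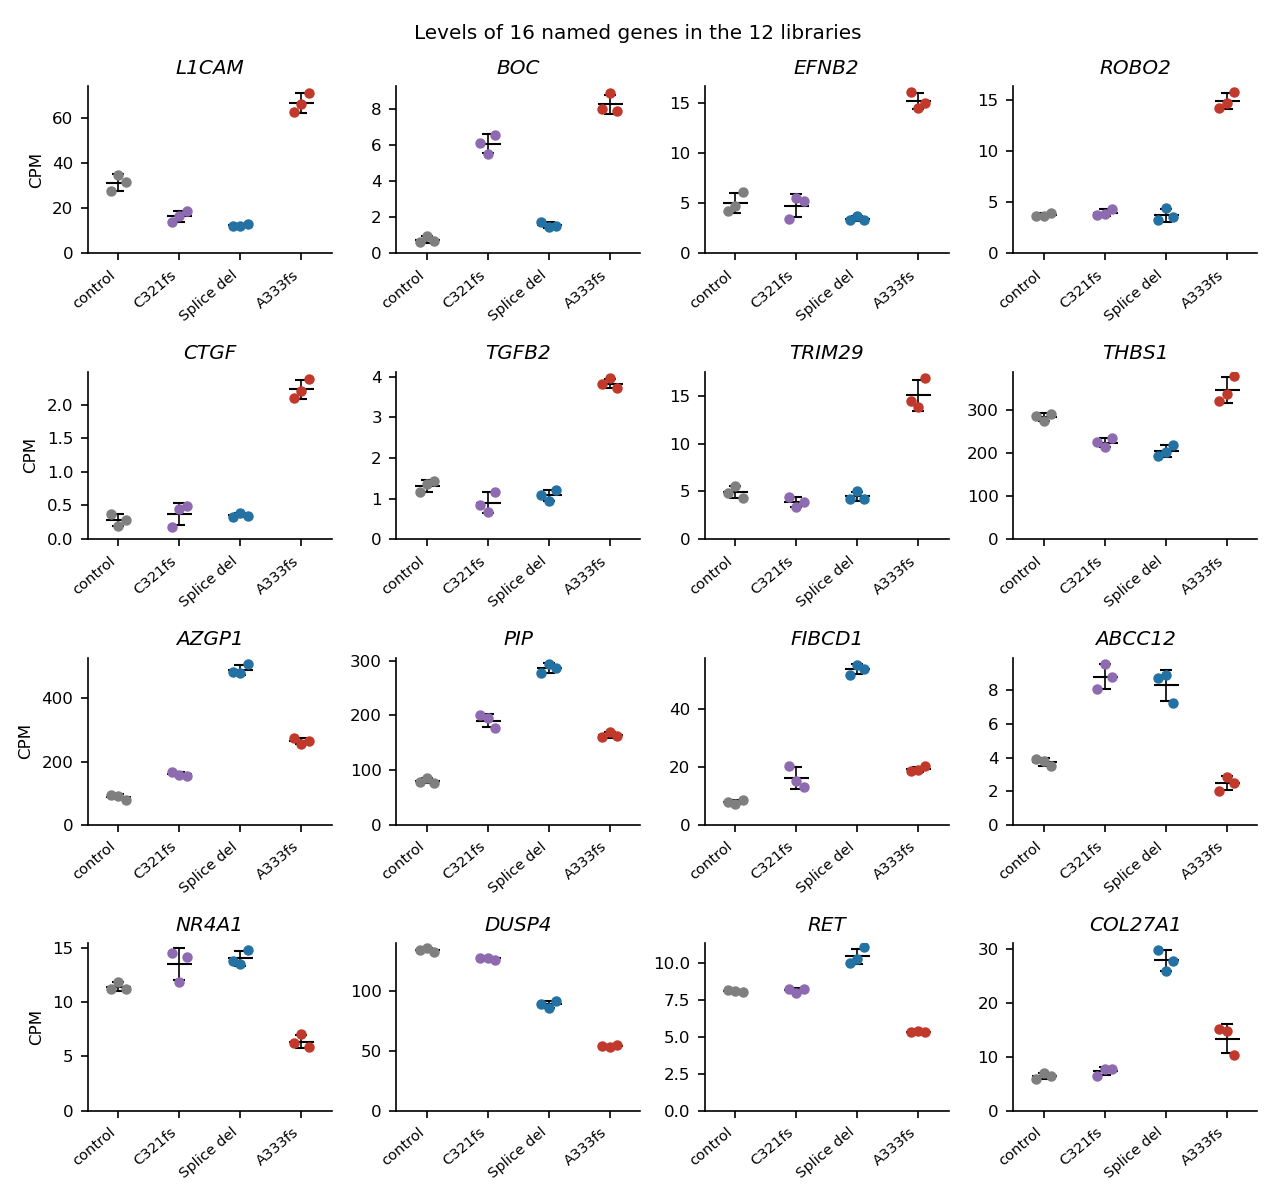
CPM of 16 named genes in the 3 libraries of each of the 4 lines (points), with the mean and SD over the 3 libraries (bars). The A333fs and Splice del points are apart for all 16 genes, while control and C321fs lie near Splice del for ROBO2, CTGF and TRIM29 and nearer to A333fs for FIBCD1.

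Genes of TGF-beta, activin and BMP signaling that were called were all higher in A333fs, 6 of 53 tested, although the median of the list, -0.03, was close to that of all genes. They include ligands, a decoy receptor and targets. TGFB2, the ligand TGF-beta 2, stood at 3.81, 3.96 and 3.73 CPM in A333fs and 1.08, 0.946 and 1.22 CPM in Splice del libraries (log2 difference 1.83, SE 0.16, adjusted p = 1.93e-06). Its exons overlap those of 2 annotated noncoding RNAs on the same locus. INHBA, the subunit of activin A, stood at 1.26, 1.02 and 1.53 CPM (39, 32 and 52 fragments) against 0.155, 0.236 and 0.174 CPM (6, 8 and 5 fragments), a log2 difference of 2.74 (SE 0.31, adjusted p = 1.72e-05). Both ligands were apart in every library.

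Among the downstream genes, BAMBI, a decoy receptor of the pathway that it is itself induced by, was at 85.5 to 87.9 CPM in A333fs and 47.9 to 50.6 CPM in Splice del libraries (log2 difference 0.83, SE 0.05, adjusted p = 4.23e-08). ID1 and ID3, inhibitors of basic helix-loop-helix factors and standard targets of BMP signaling, differed by 0.74 (SE 0.08, adjusted p = 2.02e-05) and 0.60 (SE 0.08, adjusted p = 0.000123). ID2 and ID4 differed by 0.56 and 0.54, past the adjusted p but under the fold limit. Against this direction, SKIL and PMEPA1, feedback inhibitors induced by TGF-beta, differed by -0.53 and -0.25, also past the adjusted p and under the fold limit, so the targets did not move as a block.

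The YAP and TEAD target list behaved likewise: 5 of 41 tested genes were called higher and none lower, and at any fold 11 were higher and 2 lower (median 0.06). YAP and its partner TEAD factors convey cell shape, contact and stiffness to the genome and act on CTGF, ANKRD1 and other genes through TEAD sites. CTGF, a secreted matricellular protein, stood at 2.10, 2.20 and 2.38 CPM in A333fs and 0.335, 0.384 and 0.348 CPM in Splice del libraries, the latter 13, 13 and 10 fragments. The difference was 6.21-fold (log2 2.63, SE 0.25, adjusted p = 3.13e-06), and control (0.281 CPM) and C321fs cells (0.373 CPM) were at the Splice del level. ANKRD1, a muscle ankyrin repeat protein, had 13, 23 and 16 fragments in A333fs and 6, 1 and 2 in Splice del libraries (log2 difference 2.55, SE 0.45, adjusted p = 0.000934). VGLL1, a cofactor of TEAD, differed by 1.20 (adjusted p = 0.000815), and FJX1, a secreted Golgi protein, by 0.61 (adjusted p = 3e-05). At any fold AMOTL2, AJUBA, PTPN14, CRIM1, ASAP1 and WWTR1 were also higher, by 0.29 to 0.55. CYR61, the closest relative of CTGF, differed by 0.23 (adjusted p = 0.0229) and was not called.

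Promoters of 3 called members of the list and of THBS1 are shown because TEAD factors are known to read a short word. Below are the 250 bases before the RefSeq transcription start (GRCh38.p14), 5′ to 3′ on the strand of the gene, with CATTCC or its reverse complement GGAATG in capitals. The CTGF window is at chr6:131951373-131951622, minus strand, that of ANKRD1 at chr10:90921088-90921337, minus strand, that of TGFB2 at chr1:218345086-218345335, plus strand, and that of THBS1 at chr15:39580829-39581078, plus strand. THBS1 encodes the matricellular protein thrombospondin 1 and is described below.
CTGF: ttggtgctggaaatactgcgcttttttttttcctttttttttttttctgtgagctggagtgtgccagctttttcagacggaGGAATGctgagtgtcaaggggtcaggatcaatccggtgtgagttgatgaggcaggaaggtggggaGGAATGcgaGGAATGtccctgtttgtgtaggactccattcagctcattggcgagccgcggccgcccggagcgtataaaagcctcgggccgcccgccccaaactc
ANKRD1: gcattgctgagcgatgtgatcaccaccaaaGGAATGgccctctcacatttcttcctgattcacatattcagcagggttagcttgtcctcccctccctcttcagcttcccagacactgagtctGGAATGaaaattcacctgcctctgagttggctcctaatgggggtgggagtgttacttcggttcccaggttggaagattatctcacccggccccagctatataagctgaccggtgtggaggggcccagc
TGFB2: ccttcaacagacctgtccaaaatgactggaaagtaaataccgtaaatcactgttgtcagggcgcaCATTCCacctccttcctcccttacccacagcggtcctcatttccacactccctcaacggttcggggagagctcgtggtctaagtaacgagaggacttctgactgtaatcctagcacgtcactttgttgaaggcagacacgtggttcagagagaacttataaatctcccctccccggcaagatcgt
THBS1: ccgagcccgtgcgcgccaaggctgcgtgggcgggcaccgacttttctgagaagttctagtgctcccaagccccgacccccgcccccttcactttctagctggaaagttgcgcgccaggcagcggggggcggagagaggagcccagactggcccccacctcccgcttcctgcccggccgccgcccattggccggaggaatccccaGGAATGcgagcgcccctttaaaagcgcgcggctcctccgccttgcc

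The word occurred 3 times in the CTGF window, 95 to 169 bases before the start, 2 times in that of ANKRD1 and once in those of TGFB2, THBS1 and VGLL1. It was not in the window of FJX1. Of all 35116 windows of this length in the table, 11.9% held it on either strand. A window was given for 31 of the 41 tested members of the list, under the share needed to compare the list with other genes. The start of ANKRD1 lies inside the gene as the deposited annotation draws it, so part of its window is transcribed there. A match is a description of these letters and no measure of binding.

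Several secreted matrix proteins outside the collagens were higher in A333fs, and several collagens lower, with no shift of the matricellular list as a whole. Of 43 matricellular and secreted matrix genes tested, 7 were called higher (CTGF, LUM, DCN, SDC2, THBS1, SPARC and FN1) and 2 lower (LTBP4 and PCOLCE, the latter not with the trend removed), with a median of -0.02. At any fold 8 were higher and 7 lower. THBS1 was at 321.4, 336.5 and 380.0 CPM in A333fs and 193, 204 and 218 CPM in Splice del libraries (log2 difference 0.76, SE 0.07, adjusted p = 1.59e-06), with control between them at 284 CPM. SDC2, the heparan sulfate carrier syndecan 2, was higher by 1.00 (SE 0.05, adjusted p = 9.42e-09), and FN1, fibronectin, by 0.71 (SE 0.11, adjusted p = 0.000449). DCN and LUM, small leucine-rich proteoglycans, and SPARC, a collagen-binding glycoprotein, were near 0 in control cells and present in both mutants. DCN stood at 12.4, 13.4 and 11.1 CPM in A333fs, 5.57, 6.65 and 5.71 CPM in Splice del and 0.0678 CPM in control libraries, and SPARC at 11.8, 11.6 and 12.4, at 6.61, 7.30 and 8.12 and at 0.246 CPM. The same held for TIMP3, an inhibitor of metalloproteases bound to matrix: 4.42, 4.12 and 4.58 CPM in A333fs, 0.877, 0.916 and 1.04 CPM in Splice del and 0.0116 CPM in control libraries (log2 difference between the mutants 2.21, SE 0.16, adjusted p = 2.45e-07). These genes thus followed a gradient from control through Splice del to A333fs.

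DCN, LUM and TWIST1, a transcription factor of mesenchyme, are also on the list of fibroblast markers, of which 7 of 15 were tested and these 3 called higher. LUM stood at 4.45, 5.615 and 4.05 CPM in A333fs and 2.30, 1.86 and 1.29 CPM in Splice del libraries (log2 difference 1.345, SE 0.20, adjusted p = 0.000206). The summed level of the 7 overlapped between the lines, and the 5 fibroblast markers named above had no fragment. In bulk RNA, a change in the share of cells that express a gene and a change in the amount of its RNA per cell cannot be told apart.

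Of the 44 collagen, laminin and integrin genes tested, COL5A1 was called higher (in 8 of the 12 fits that leave out 1 library) and COL27A1, ITGA5, COL7A1, COL11A1 and ITGB7 lower, with a median of -0.25, or -0.10 with the trend removed and the same counts of calls. COL27A1, a fibrillar collagen of cartilage, stood at 15.2, 14.7 and 10.3 CPM in A333fs and 29.9, 25.97 and 27.8 CPM in Splice del libraries (log2 difference -1.06, SE 0.12, adjusted p = 1.78e-05). COL7A1, the collagen of anchoring fibrils, was lower by 1.29 on the log2 scale (SE 0.23, adjusted p = 0.00109), and its A333fs libraries spread widely, from 2.14 to 5.20 CPM. ITGA5, the alpha subunit of the fibronectin receptor, was at 5.91 to 7.40 CPM against 10.4 to 12.1 CPM (log2 difference -0.77, SE 0.10, adjusted p = 4.87e-05). Fibronectin and its receptor subunit thus differed in opposite directions. Among 52 extracellular proteases and inhibitors tested, TIMP3 and SPINK4 were higher and TIMP1, SERPINI1, SPINK13, HPN and MMP17 lower (SPINK4 and MMP17 not with the trend removed), so that the related inhibitors TIMP3 and TIMP1 parted. TIMP1 stood at 3.36, 3.09 and 3.08 CPM in A333fs and 5.13, 4.61 and 5.19 CPM in Splice del libraries (log2 difference -0.65, adjusted p = 0.00098).

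Of 15 keratin genes tested, KRT4, KRT13, KRT23 and KRT14 were called higher in A333fs and none lower, with a median of 0.15. At any fold 6 were higher and KRT7 lower, and 4 were below 0. KRT23 stood at 125, 123 and 126 CPM against 73.5, 75.2 and 73.6 CPM (log2 difference 0.75, SE 0.06, adjusted p = 4.44e-07). KRT4 and KRT13, the pair of keratins of non-cornified stratified epithelium, differed by 1.31 (SE 0.14, adjusted p = 1.33e-05) and 1.30 (SE 0.18, adjusted p = 0.000163), and control, at 3.62 and 2.04 CPM, was near A333fs for both. KRT14, a basal keratin, was barely expressed, with 18, 16 and 21 fragments in A333fs and 8, 3 and 2 in Splice del libraries, and was called in 8 of the 12 fits that leave out 1 library. KRT8, the main luminal keratin, was at 5019 to 5664 CPM against 3566 to 3923 CPM, a difference of 0.53 (SE 0.08, adjusted p = 0.000235) that missed the fold limit. With the trend removed the KRT8 difference was 0.66 and was called, and 5 keratins were called higher. KRT5, KRT6A, KRT6B and KRT17 were too low to test.

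TRIM29, a TRIM protein of basal and stratified epithelium that was picked after its values were seen, stood at 14.4, 13.8 and 16.9 CPM in A333fs and 4.23, 4.99 and 4.21 CPM in Splice del libraries (log2 difference 1.75, SE 0.12, adjusted p = 9.41e-08), with 4.89 CPM in control and 3.90 CPM in C321fs cells. GRHL3, a transcription factor of the epidermal barrier, was higher by 1.09 (adjusted p = 3.2e-05) and KLF5, a factor of proliferating epithelium, by 0.67 (adjusted p = 0.00737, called in 6 of the 12 fits that leave out 1 library). Of the 27 EMT transcription factors and epithelial factors tested, the list of both genes, 3 were called higher and none lower. At any fold 3 were higher and 3 lower, 19 were below 0 and the median was -0.05, so the list did not rise as a whole. CLDN1, a claudin of tight junctions, was at 137, 137 and 139 CPM in A333fs and 75.9, 74.5 and 74.7 CPM in Splice del libraries, with 154 CPM in control and 46.3 CPM in C321fs cells (log2 difference between the mutants 0.88, SE 0.05, adjusted p = 4.23e-08). It was the only gene called higher of 62 cell-cell junction genes tested, and GJC3 the only gene called lower. CDH1, E-cadherin, overlapped between the lines (log2 difference 0.06, adjusted p = 0.607), as did VIM, vimentin (0.13, adjusted p = 0.398). ACTA2, smooth muscle actin, was higher by 0.68 while TAGLN, transgelin, was lower by 1.09 on the log2 scale, although both mark contractile myoepithelium.

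Secreted inflammatory proteins were among the largest differences, at low levels. CCL2, a chemokine that attracts monocytes, had 34, 27 and 24 fragments in A333fs and 3, 3 and 0 in Splice del libraries (log2 difference 3.81, SE 0.50, adjusted p = 0.000144). S100A8, a subunit of calprotectin, had 21, 12 and 17 fragments against 0, 1 and 2, a ratio of the normalised sums of 17.5 with a 95% interval of 5.66 to 87.8 that covers counting error only. Its partner S100A9 had 41, 44 and 51 fragments against 14, 4 and 7 (log2 difference 2.50, SE 0.36, adjusted p = 0.000169). IL32, an intracellular cytokine, stood at 2.29, 2.36 and 2.44 CPM against 0.464, 0.266 and 0.244 CPM (log2 difference 2.81, SE 0.29, adjusted p = 6.75e-06). CCL28, a mucosal chemokine of the breast, was well expressed, at 29.98, 31.0 and 26.9 CPM against 12.6, 12.2 and 11.5 CPM (log2 difference 1.27, SE 0.07, adjusted p = 1.48e-08). Of 41 tested NF-kappaB feedback genes and chemokines, CCL2, IL32, CCL28 and CXCL14 (in 8 of the 12 fits that leave out 1 library) were higher and TNFSF10, CXCR4 and CD14 lower.

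Interferon-stimulated genes parted into GBP1 and GBP2, guanylate-binding proteins, and the rest. GBP1 and GBP2 were the 2 members called, both higher, by 1.80 (SE 0.27, adjusted p = 0.000289) and 1.56 (SE 0.25, adjusted p = 0.000501), from 38 to 61 and 41 to 47 fragments in A333fs libraries. The median of the 47 tested members was -0.24, however, and -0.24 with the trend removed, when 2 members were also called lower and 7 were lower at the adjusted p. Only 4 members had a difference above 0, and 6 passed the adjusted p below it (IFITM1, HELZ2, LGALS3BP, IFIT5, LY6E and UBE2L6, by -0.58 to -0.32). IRF9 and IRF7, transcription factors of the response, were called lower, IRF9 at 11.4, 13.4 and 10.8 CPM against 19.1, 16.7 and 20.7 CPM (log2 difference -0.67, SE 0.12, adjusted p = 0.00106). IRF7 differed by -0.64 and was not called with the trend removed. Of 29 RNA sensors, STAT and IRF factors tested, these 2 were called lower (6.9% called, beside 3.0% of all genes) and none higher. At any fold 4 were lower, or 2 with the trend removed, while 10 were above 0 and the median was -0.05. Against control, the median of the interferon-stimulated list was 0.65 (A333fs) and 0.87 (Splice del), and these comparisons share the control libraries. The summed level of its 47 tested genes, where abundant members weigh most, did not rise with these medians. It was 1753 to 1783 CPM in A333fs, 2172 to 2251 CPM in Splice del and 2173 to 2418 CPM in control libraries. HLA-F, a non-classical class I molecule, and NLRC5, the activator of class I genes, were also lower, by 0.73 and 0.74 on the log2 scale, NLRC5 in 8 of the 12 fits that leave out 1 library. Exons of HLA-F overlap those of HLA-F-AS1 and HLA-H. HLA-F and NLRC5 were the only called members of 21 class I antigen presentation genes tested (9.52%), with a median of -0.12, or -0.07 with the trend removed. At any fold 5 of the 21 were lower and none higher.

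**Figure D3:**
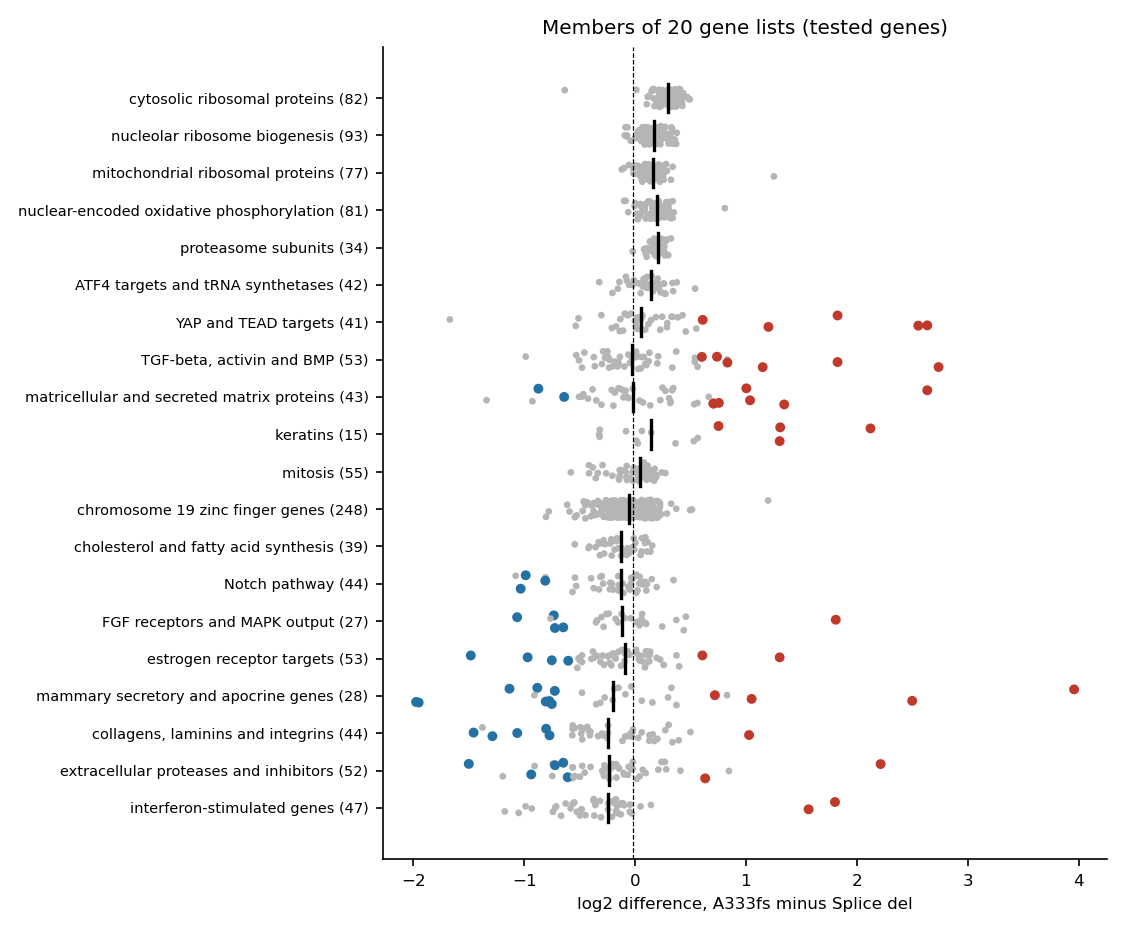
Log2 difference between A333fs and Splice del for the tested members of 20 gene lists (points; red called higher, blue called lower, grey not called), with the median of each list (black bar) and of all genes tested (dashed line). Ribosomal protein genes are displaced as a narrow cloud with no called member, while in the YAP, TGF-beta and matrix lists a few members lie far to the right of a cloud near 0.

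The genes lower in A333fs included secreted proteins of mammary and apocrine epithelium at high level. AZGP1, zinc-alpha-2-glycoprotein (chromosome 7, 99966727 to 99976112), stood at 275, 256 and 266 CPM in A333fs and 482, 478 and 507 CPM in Splice del libraries (log2 difference -0.88, SE 0.06, adjusted p = 1.52e-07). Its pseudogene AZGP1P1, lower by 1.14 on the log2 scale, is a near copy, and how reads were split between them is uncertain. PIP, the prolactin-induced protein, stood at 160.2, 170.1 and 162 CPM against 278, 295 and 287 CPM (log2 difference -0.81, SE 0.06, adjusted p = 2.12e-07). Both genes were lowest in control, at 88.3 and 80.6 CPM, so that each mutant was above control and Splice del farther. TFF3, a trefoil peptide induced by estrogen, showed the same order (log2 difference -0.75, SE 0.10, adjusted p = 8.76e-05). APOD, a lipocalin of breast cyst fluid, was at 13.2, 13.1 and 13.2 CPM in A333fs, 22.4, 22.0 and 23.1 CPM in Splice del and 14.5 CPM in control libraries, so Splice del alone stood apart (log2 difference -0.77, SE 0.07, adjusted p = 1.67e-06).

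In all, 8 of 28 tested members of the mammary secretory and apocrine list were called lower, CEACAM5, CEACAM6 and UGT2B11 among them, and 4 higher (S100A8, S100A9, CD36 and DHRS2). The median was -0.20. CEACAM5 had only 7 to 9 fragments in A333fs libraries. CD36, the fatty acid translocase, was at 8.68, 8.96 and 7.98 CPM against 4.23, 4.17 and 3.94 CPM (log2 difference 1.05, SE 0.11, adjusted p = 6.07e-06), so the list was mixed. FIBCD1, a chitin-binding membrane protein, was the farthest below among called genes with a mean of at least 10 CPM: 18.7, 18.8 and 20.1 CPM in A333fs and 51.9, 55.3 and 53.7 CPM in Splice del libraries (log2 difference -1.48, SE 0.11, adjusted p = 2.88e-07). ABCC12, an ABC transporter, stood at 2.03, 2.87 and 2.50 CPM against 8.75, 8.92 and 7.24 CPM (log2 difference -1.75, SE 0.13, adjusted p = 2.26e-07).

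Some feedback genes of the MAPK cascade and the receptor tyrosine kinases FGFR3 and RET were lower in A333fs. DUSP4, a phosphatase that inactivates MAP kinases, stood at 54.1, 53.3 and 55.0 CPM in A333fs and 89.6, 86.4 and 92.0 CPM in Splice del libraries (log2 difference -0.72, SE 0.05, adjusted p = 7.66e-08), and control was higher still at 135 CPM. SPRY4, an inhibitor of receptor signaling induced by it, was at 5.04, 4.59 and 4.81 CPM against 7.77, 7.42 and 7.42 CPM (log2 difference -0.65, SE 0.09, adjusted p = 0.000107). ETV4, an ETS factor downstream of FGF receptors, was lower by 1.06 on the log2 scale (adjusted p = 0.0054) and was called in 7 of the 12 fits that leave out 1 library. FGFR3, a receptor of the FGF family, was at 35.7, 34.2 and 35.7 CPM against 58.8, 56.4 and 60.3 CPM, a difference of -0.73 (SE 0.06, adjusted p = 8.04e-07) that was -0.53 and not called with the trend removed. Of 27 FGF receptor and MAPK output genes tested, 4 were called lower and only FLRT3 higher (median -0.12). At any fold 6 were lower and 3 higher. FGFR2 was higher by 0.44, past the adjusted p but under the fold limit.

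NR4A1, an immediate early nuclear receptor, stood at 6.197, 7.02 and 5.87 CPM in A333fs and 13.8, 13.5 and 14.8 CPM in Splice del libraries (log2 difference -1.14, SE 0.09, adjusted p = 8.11e-07). EGR3, an immediate early zinc finger factor, was also lower, but with 6 to 8 fragments in A333fs libraries it was called in only 3 of 12 such fits. RET, the receptor tyrosine kinase for GDNF ligands, and GFRA1, the co-receptor it acts with, are both estrogen receptor targets in breast cells and both were lower. RET stood at 5.29, 5.36 and 5.31 CPM against 10.01, 10.2 and 11.04 CPM (log2 difference -0.97, SE 0.08, adjusted p = 6.31e-07), with 8.11 CPM in control cells. GFRA1 stood at 9.52, 8.84 and 9.13 CPM against 13.5, 14.1 and 14.2 CPM (log2 difference -0.60, SE 0.08, adjusted p = 7.97e-05). Of 53 estrogen receptor targets tested, RET, GFRA1, TFF3 and EGR3 were called lower and KRT13 and HSPB8 higher, and at any fold 15 were lower and 5 higher, with a median of -0.09. The receptor ESR1 itself differed by -0.12 (adjusted p = 0.178), and its partner FOXA1 by -0.30 (SE 0.05, adjusted p = 0.000315), from 447 to 456 CPM in Splice del to 360.3 to 374 CPM in A333fs libraries.

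Of 44 Notch pathway genes tested, 3 were called lower and none higher. They were MFNG, a fringe glycosyltransferase that modifies Notch receptors, MAMLD1, a Mastermind-like protein, and DTX4, a Deltex ubiquitin ligase. MFNG was called in 7 and MAMLD1 in 8 of the 12 fits that leave out 1 library. DTX4 stood at 7.07, 6.80 and 7.87 CPM in A333fs and 12.7, 12.5 and 12.96 CPM in Splice del libraries (log2 difference -0.81, SE 0.09, adjusted p = 9.38e-06). At any fold 10 were lower and none higher (median -0.13), with NRARP and LFNG among them, and with the trend removed 6 were lower and 2 higher (median -0.04). Neural-type and postsynaptic genes were called in both directions. Of 81 tested, 7 were called lower, among them CSMD2 and the NMDA receptor subunits GRIN1 and GRIN2D, and 4 higher, among them the kainate receptor subunit GRIK1. At any fold 16 were lower and 5 higher, with a median of -0.18, and with the trend removed 4 were called in each direction. CSMD2 stood at 0.613, 0.415 and 0.616 CPM against 1.99, 2.22 and 1.99 CPM (log2 difference -1.90, SE 0.21, adjusted p = 1.41e-05), the largest difference by which a gene with at least 1 CPM in the higher line was lower. Exons of GRIK1 overlap the antisense gene GRIK1-AS2, also called higher. The counting was made without strand and left out fragments that fit both genes.

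Besides these individual genes, ribosomal protein and ribosome biogenesis genes were displaced by a small step. Of 82 tested cytosolic ribosomal protein genes, 81 had a difference above 0, the median was 0.30, and 44 passed the adjusted p (53.7%, beside 4.63% of all genes higher at any fold), none with a fold over 1.5. RPS12 stood at 657, 638 and 629 CPM in A333fs and 441, 473 and 475 CPM in Splice del libraries (log2 difference 0.47, SE 0.07, adjusted p = 0.000174). The single member below 0 was RPL36A. Of 93 nucleolar genes of ribosome biogenesis, 87 were above 0 and 21 passed the adjusted p, all higher, with a median of 0.17. They include NPM1, a nucleolar chaperone, at 1890, 1980 and 1856 CPM against 1470, 1488 and 1452 CPM (log2 difference 0.38, SE 0.06, adjusted p = 0.000235), the RNA polymerase I subunits POLR1A and POLR1B, and DKC1, the pseudouridine synthase of small nucleolar particles. The library averages of both lists were above those of Splice del in every A333fs library.

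Translation initiation and elongation factors differed less: of 61 tested, 10 were higher and 1 lower at the adjusted p, 14 were below 0 and the median was 0.08. The lower gene, EIF4E1B, a germline form of the cap-binding protein, was called (log2 difference -1.06, adjusted p = 0.000603). Proteasome subunits, mitochondrial ribosomal proteins and oxidative phosphorylation genes leaned the same way. Their medians were 0.20, 0.16 and 0.19, and 11 of 34, 7 of 77 and 8 of 81 passed the adjusted p, all higher. Of 37 cytosolic heat shock genes, 12 were higher, among them the chaperonin subunits CCT2, CCT3, CCT5 and TCP1 and the mitochondrial chaperonins HSPD1 and HSPE1, and BAG3 was lower. Of 42 ATF4 targets and tRNA synthetases, 7 were higher (median 0.15). Against control, the ribosomal protein list had a median of -0.17 (A333fs) and -0.50 (Splice del), so that Splice del was the farther from control. The displacement stayed with the trend over GC content and length removed, at medians of 0.24 for ribosomal proteins and 0.20 for nucleolar genes, with 52 and 47 genes higher at the adjusted p, beside 10.2% of all genes, and RPL36A called lower. Genes of cholesterol and fatty acid synthesis lay on the other side: none was called, and 11 of 39 were lower at the adjusted p, led by ELOVL6 (-0.54), FADS2 (-0.42) and SREBF1 (-0.41), with a median of -0.13, or -0.03 with the trend removed, where 12 were lower.

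**Figure D4:**
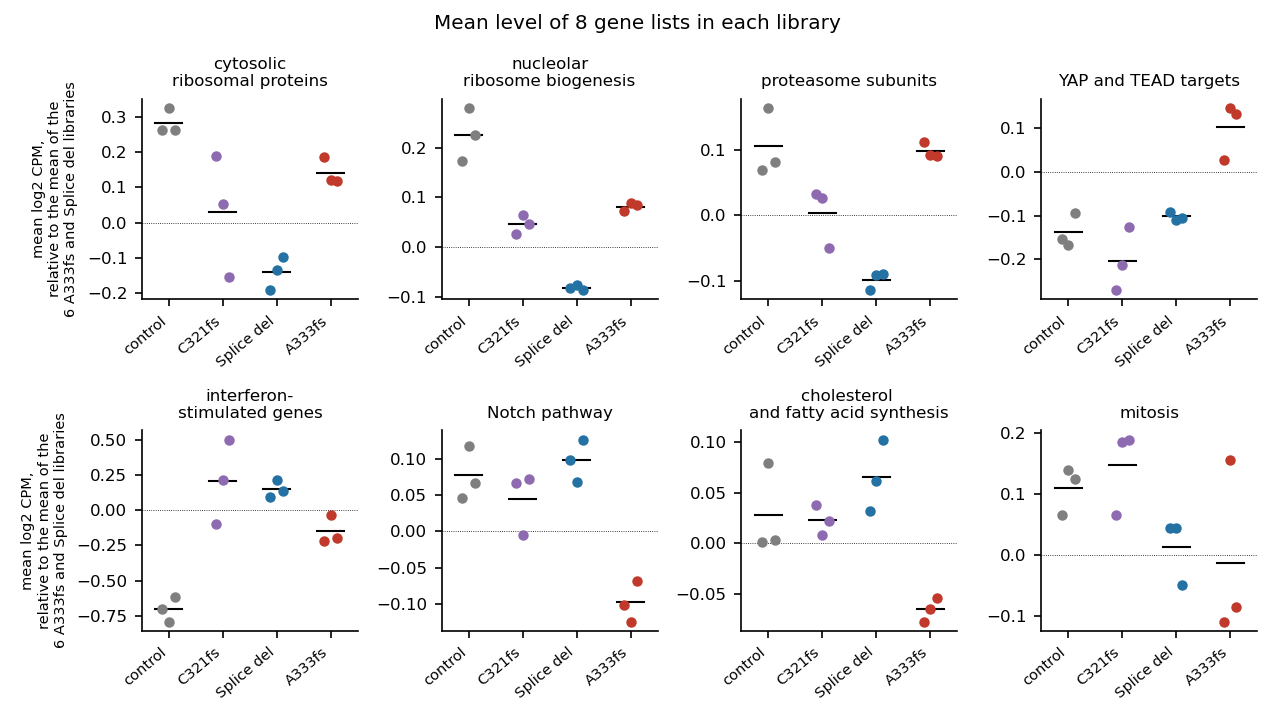
Mean log2 CPM of 8 gene lists in each library, relative to the mean of the 6 A333fs and Splice del libraries (points), with the mean of each line (bar). Ribosomal, nucleolar and proteasome genes are higher in every A333fs than in every Splice del library by at most 0.4, Notch and cholesterol genes lower, and for mitosis the lines overlap.

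Several lists had no called member, and for some of them the median was also close to that of all genes. Of 55 mitosis genes 1 passed the adjusted p at any fold and of 62 replication genes 4, none with a fold over 1.5, and the medians were 0.04 and 0.06. The library averages of the replication list were still above those of Splice del in every A333fs library. With the trend removed, 11 replication genes were higher and 1 lower at the adjusted p, beside 10.2% and 6.54% of all genes. None of the 248 tested zinc finger genes of chromosome 19 was called, and 3 passed the adjusted p. No amino acid transporter (28 tested) or SOX factor (9 tested) was called, and 1 of each was lower at the adjusted p. Their medians were -0.07 and -0.13, the latter away from the -0.02 of all genes. Of all 14789 genes tested, 444 were called and 11.9% passed the adjusted p at any fold. Lists of 9 to 28 genes are therefore too small for the absence of a call to set them apart from other genes. Of 18 aryl hydrocarbon receptor genes none was called, but AHR and TXNRD1 were higher at the adjusted p, by 0.36 and 0.23, the median was 0.14, and their summed level was 1510 to 1541 CPM in A333fs and 1388 to 1394 CPM in Splice del libraries. The most abundant called genes besides AZGP1 and THBS1 were CD24, a sialoglycoprotein of the luminal surface (675 to 718 CPM against 443 to 467 CPM, log2 difference 0.62, adjusted p = 2.29e-06), RCAN1, a calcineurin inhibitor (339 to 349.8 CPM against 180.4 to 186 CPM, 0.91, adjusted p = 9.42e-09) and CITED2, a transcriptional cofactor that limits hypoxia signaling (0.59, adjusted p = 2.8e-05). EPAS1, the hypoxia-inducible factor HIF-2 alpha, was at 112, 116 and 124 CPM against 55.9, 58.8 and 62.0 CPM (log2 difference 0.99, SE 0.06, adjusted p = 4.23e-08), while SLC16A3, a lactate transporter induced by hypoxia, was lower by 0.80 on the log2 scale (adjusted p = 2.9e-05), or by 0.57 and not called with the trend removed.

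The comparisons of each mutant with control share the control libraries, and each shares libraries with the comparison that chose these genes, so their values are given side by side only. Of the 152 genes higher in A333fs than in Splice del, 102 were called higher and 1 lower against control in A333fs, where 5.46% of all genes were higher and 6.81% lower. Against control, 27 were called higher and 26 lower with Splice del, where 6.21% and 4.53% of all genes were. Of the 292 lower genes, 23 were higher and 94 lower than control in A333fs, and 93 higher and 9 lower in Splice del. L1CAM, SHISA2, a membrane protein of the endoplasmic reticulum, HS3ST3B1, a heparan sulfate sulfotransferase, and ABCC12 were called on opposite sides of control in the 2 mutants.

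The lower genes were rich in G and C. Their exons had a median GC content of 58.8%, beside 48.2% in the higher genes and 49.6% in all genes tested. The slope of a library's log2 CPM over 10 percentage points of GC content was -0.0856, -0.171 and -0.118 in A333fs and -0.0544, -0.0670 and 0.0216 in Splice del libraries, without overlap (two-sided exact permutation test, p = 0.1, the smallest that 3 against 3 libraries allow). In the 1479 genes with the highest GC content (62.5% to 87.9%) the median difference was -0.20, and 76 were lower and 6 higher. With the trend removed, that median was 0.01. Whether the trend arose in the cells or in the libraries was not tested.

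**Figure D5:**
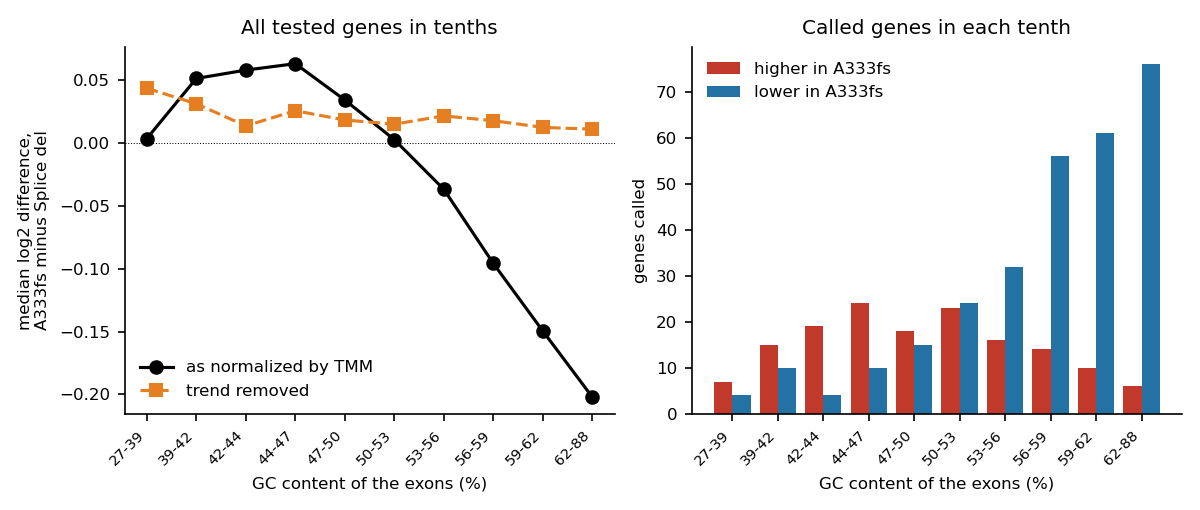
Left, median log2 difference between A333fs and Splice del in 10 bins of the genes tested by GC content of their exons, as normalized by TMM (circles) and with the trend removed (squares). Right, genes called in each bin: 4 genes were lower in the bin of lowest GC content and 76 in that of highest, against 7 and 6 higher genes.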

How the data were processed

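Total RNA of the 4 T47D pools was sequenced as 150-base pairs on 1 NovaSeq lane. The authors trimmed and aligned the reads to hg38 and counted fragments per gene with featureCounts 1.6.4, without strand and leaving out fragments that fit several genes or places. The submitters' notes name HISAT2 and the paths in the file headers name STAR, so the aligner is not settled. The deposited values are raw counts of 26485 genes under older symbols (CTGF for CCN2, CYR61 for CCN1).

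From these counts, genes were filtered with filterByExpr, scaled by TMM and fitted over all 12 libraries by group with edgeR's quasi-likelihood test (edgeR 4.0.16, R 4.3.3). The contrast was A333fs minus Splice del with Benjamini-Hochberg adjustment over the 14789 genes tested, and a call needed an adjusted p below 0.01 and a fold over 1.5. All adjusted p-values come from this fit. CPM are TMM-scaled, a list's median is that of its tested members, and levels are not per length. Libraries of 1 group differed by more than sampling noise (chi-square per gene 2.12 to 10.0).

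The rule for named genes took the 12 largest called differences per direction (libraries not overlapping, mean of at least 1 CPM in the higher line), up to 4 called members per direction of each of 50 gene lists by adjusted p, or 2 members of a list with no call, the 5 most abundant called genes per direction, genes called on opposite sides of control, and GATA3 with genes the study names. Other named genes were chosen after their values were seen. The members and lists were chosen with earlier results of these data known. GC content came from hg38 exons, and the trend removal used loess (span 0.3) entered as offsets. Intervals cover counting error only. The code was tested on simulated counts. Alternatives were other scaling, filters and thresholds, DESeq2 1.42.0, the 6 libraries alone, a replicate block, the trend removed, and each library left out. Same-numbered libraries of the 2 lines correlated at -0.0983, 0.0755 and 0.0664, so the numbers were not taken as pairs. The ChIP-seq samples were not used here, and some called genes are not reported here by name.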

Additional observations from a re-analysis of the deposited data

Results flagged for a closer look

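The 4 genes below were called in opposite directions against the shared control in the 2 mutants, and the difference itself was tested as the contrast between the mutants. L1CAM differed by 1.09 from control in A333fs and by -1.32 in Splice del cells on the log2 scale, a difference of 2.41 between the mutants (edgeR adjusted p = 1.44e-09). SHISA2 differed by 0.96 and -1.28, a difference of 2.24 (edgeR adjusted p = 6.61e-08), with 4.94, 4.91 and 5.14 CPM in A333fs and 1.11, 1.00 and 1.04 CPM in Splice del libraries. HS3ST3B1 differed by 0.71 and -0.75, a difference of 1.46 (edgeR adjusted p = 2.63e-05). ABCC12 went the other way, with -0.60 in A333fs and 1.15 in Splice del cells, a difference of -1.75 (edgeR adjusted p = 2.26e-07). The A333fs and Splice del libraries did not overlap for any of the 4.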

How the results depend on the processing

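Of the 132 called genes that the naming rule took, 126 kept their call with RLE scaling, 126 with upper-quartile scaling, 125 with library size only, 118 with DESeq2, 124 with the 6 libraries alone, 127 with the replicate block and 117 with the trend over GC content and length removed. Tested against a fold of 1.5, 51 genes were higher and 13 lower, and 38 of the 132 genes stayed. At an adjusted p below 0.05, 440 genes were lower, and with no minimum fold 684 were higher and 1078 lower. The replicate block gave 148 higher and 275 lower. Leaving out 1 library at a time gave 125 to 163 higher and 194 to 326 lower genes, with 194 without replicate 3 of A333fs. The median difference of nucleolar genes was 0.1924 with RLE, 0.1937 with upper-quartile scaling, 0.1325 with library size only, 0.1952 with no filter, 0.1988 with the trend removed, 0.1936 with DESeq2 and 0.1595 to 0.195 with a library left out. That of ribosomal proteins was 0.2395 with the trend removed and 0.2786 to 0.3448 with a library left out. Some values close to 0 turned: GATA3 was -0.0174 with library size only, and with a library left out GATA3 ranged from -0.00686 to 0.0601, CDH1 from -0.00601 to 0.139 and LOX from -0.0954 to 0.159. The causes were not tested. Genes with few fragments in one line, such as CCL2 and S100A8, have fold changes that depend on the prior count, and depth limits how finely they can be placed.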

Other observations

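Other genes also parted the mutants and were picked here after their values were seen. VTCN1, an immune checkpoint ligand of the B7 family that is common on breast epithelium, stood at 29.9, 29.1 and 30.4 CPM in A333fs and 8.36, 8.39 and 9.30 CPM in Splice del libraries (log2 difference 1.78, SE 0.08, edgeR adjusted p = 1.44e-09). SLC40A1, the iron exporter ferroportin, stood at 210.7, 229 and 212 CPM against 116, 123 and 111 CPM (log2 difference 0.90, edgeR adjusted p = 7.29e-08). HSD17B1, which makes estradiol from estrone, stood at 182, 175 and 182 CPM against 117, 116 and 125 CPM (log2 difference 0.59, edgeR adjusted p = 7.85e-05). ABCC11, an apocrine efflux transporter and the relative of ABCC12, was lower by 0.74 on the log2 scale, at 72.5, 72.4 and 82.0 CPM against 122, 126 and 131 CPM. None of these genes overlapped between the 6 libraries. The metallothioneins MT1M, MT1X and MT1F, metal-binding proteins of high sequence similarity whose reads may be split unevenly, differed by 1.79, 0.92 and 0.74.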
